A study of Mus musculus with 3 samples.

Results

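TGFβ1-stimulated hepatic stellate cells (HSCs) were compared with untreated HSCs across the genes measured by bulk RNA-seq. The deposited table of this comparison holds 31691 rows, of which the 9652 genes with a mean over both conditions of at least 10 TPM (reads per gene scaled for transcript length and library size) were kept. For each gene the log2 ratio was recomputed as log2((TGFβ1 + 1)/(untreated + 1)) from the values in TPM, a scale on which the difference of a weakly expressed gene is understated. *Gch1*, the first enzyme of tetrahydrobiopterin synthesis, lay just inside the limit with a mean of 10.004 TPM, and *Ehbp1* lay just outside it with 9.997 TPM.

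Cells of both groups came from wild-type female C57BL/6 mice older than 24 weeks and were enriched on a density gradient. After 24 h in medium with 0.2% FBS they received 1 ng/mL recombinant human TGFβ1 for 24 h or no cytokine. In a further condition of the series, the same kind of culture received 100 ng/mL FGF18. The study states triplicate samples for each condition, whereas the labels list 1 record per condition, and the deposited values are the authors' mean of each condition. The spread between samples is therefore unknown, no test was made, and every difference given here is a difference between 2 means. A typical isolation, by the labels, drew on more than 1 mouse, and no label or method states whether the 3 samples of a condition came from separate isolations.

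HSCs are the vitamin A-storing pericytes of the liver sinusoid. TGFβ is the best known signal that turns them into collagen-producing myofibroblasts: the active ligand assembles type II and type I receptors, which phosphorylate SMAD transcription factors. The ligand is secreted in a latent form and kept in the matrix by binding proteins on microfibrils, and integrins and proteases set it free.

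Defining genes of HSCs were present in both groups. The 9 HSC markers that were examined lay between 7.44 and 624 TPM with TGFβ1 and between 40.7 and 1135 TPM in untreated HSCs. *Reln* (reelin) stood at 173 TPM with TGFβ1 and 208 TPM in untreated HSCs, *Cygb* (cytoglobin) at 113 TPM with TGFβ1 and 125 TPM in untreated HSCs, and *Des* (desmin) at 93.0 TPM with TGFβ1 and 148 TPM in untreated HSCs. Markers of bile duct and mesothelium reached at most 2.88 TPM with TGFβ1 and 2.85 TPM in untreated HSCs, and 4 defining hepatocyte genes, *Alb* among them, at most 6.57 TPM with TGFβ1 and 6.03 TPM in untreated HSCs. In a longer list of 20 hepatocyte genes, 3 reached a mean of 10 TPM: *Ass1*, a urea cycle enzyme, with 53.1 TPM with TGFβ1 and 49.1 TPM in untreated HSCs, *Trf* (transferrin) with 22.7 TPM with TGFβ1 and 31.5 TPM in untreated HSCs, and *Apoa2* with 15.8 TPM with TGFβ1 and 7.14 TPM in untreated HSCs. Of the macrophage markers, *Lyz2* (lysozyme) and *Cd68* were above 40 TPM in both groups, while *Adgre1*, *Clec4f* and *C1qa* stayed under 1 TPM. Endothelial genes were present in both groups: the 8 examined summed to 152 TPM with TGFβ1 and to 351 TPM in untreated HSCs, and *Fcgr2b* alone accounted for 13.3 TPM with TGFβ1 and 143 TPM in untreated HSCs.

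**Figure D1:**
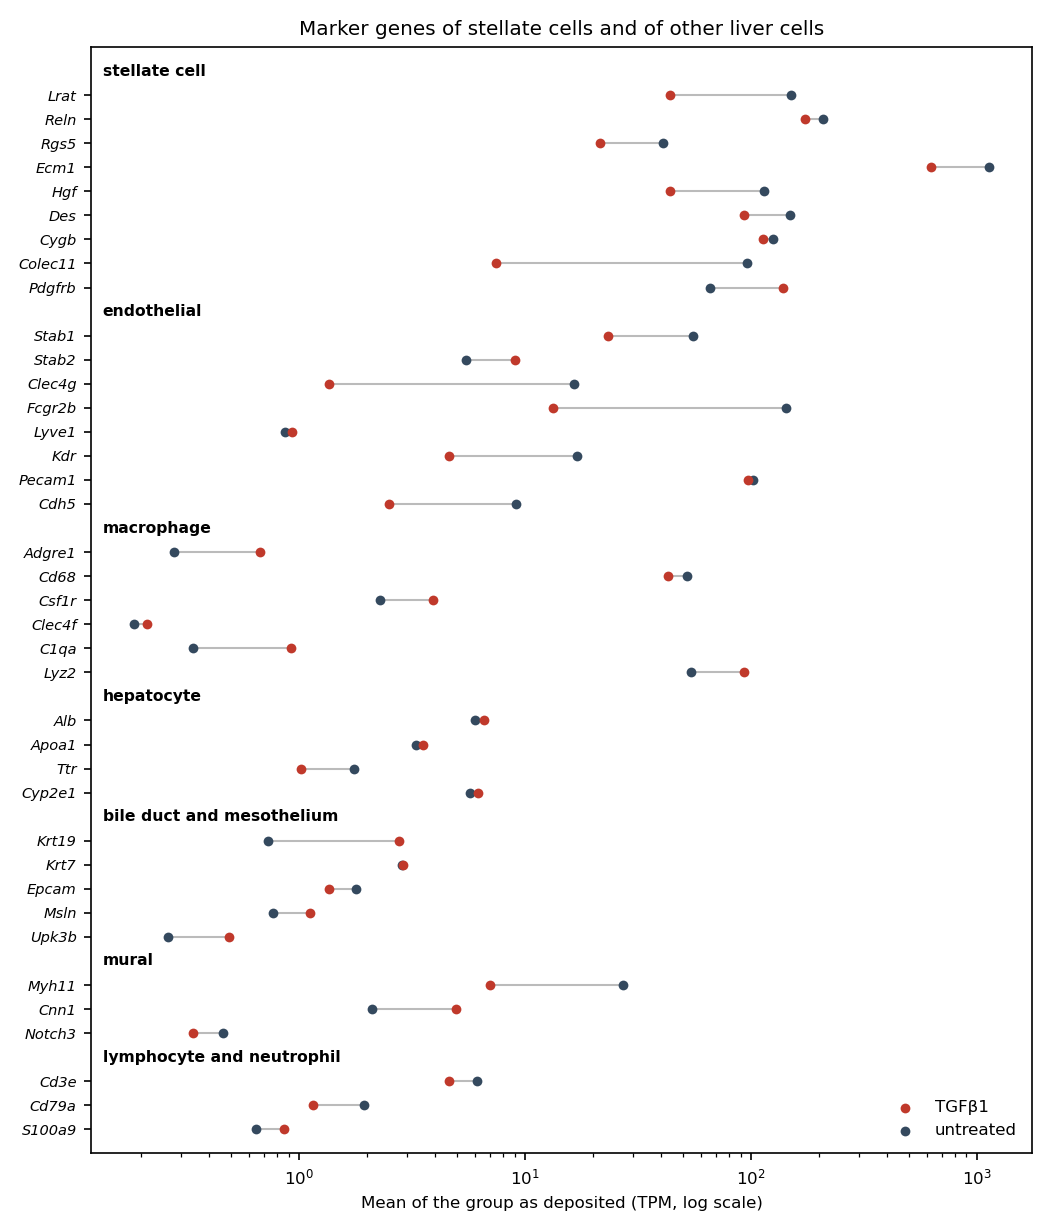
Mean TPM of each group on a log scale for marker genes of HSCs and of other liver cells, with TGFβ1 in red and untreated in blue; *S100a8*, listed at 0 in untreated HSCs, is left out. Most HSC markers lie above all markers of hepatocytes, bile duct and lymphocytes in both groups. Of the endothelial markers, *Stab1*, *Clec4g*, *Fcgr2b*, *Kdr* and *Cdh5* lie lower with TGFβ1. *Pecam1* and *Lyve1* lie close together in both groups, and *Stab2* lies higher with TGFβ1.

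Most genes differed little between the groups. Of the 9652 genes, 185 (1.92%) were at least 2-fold higher with TGFβ1, 184 (1.91%) were at least 2-fold lower and 9283 (96.2%) lay within 2-fold. The median log2 ratio was 0.01, and 90% of the genes lay between -0.63 and 0.65. Most genes past 2-fold, 161 of the 185 higher and 146 of the 184 lower, had a mean under 100 TPM, as did most of the 9652 genes. Among the 1761 genes from 100 TPM, 24 (1.36%) were at least 2-fold higher and 38 (2.16%) at least 2-fold lower.

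**Figure D2:**
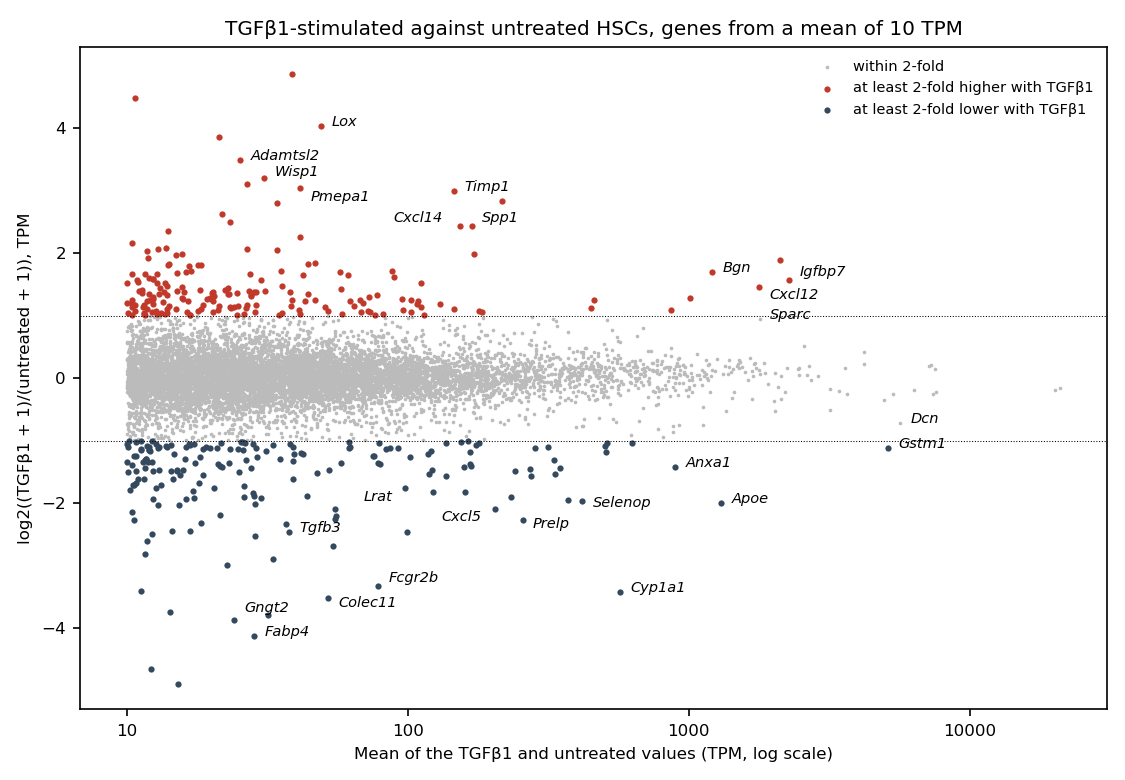
Each point is a gene, with its mean TPM over both groups on the horizontal log axis and its log2 ratio of TGFβ1 to untreated HSCs on the vertical axis; dotted lines mark 2-fold. Most points lie between the lines, *Lox* stands highest among the labelled genes, and *Fabp4* and *Cyp1a1* are among the labelled genes farthest below.

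Several genes of the matrix were among the largest differences upwards. *Lox*, whose product cross-links elastin and collagen, had 93.2 TPM with TGFβ1 and 4.73 TPM in untreated HSCs, a log2 ratio of 4.04. *Adamtsl2* (chromosome 2, 27079379-27108981, GRCm38), a protein that binds fibrillin microfibrils and latent TGFβ-binding protein, had 47.4 TPM with TGFβ1 and 3.28 TPM in untreated HSCs. *Timp1* (chromosome X, 20870166-20874735), an inhibitor of matrix metalloproteases, was highest among the genes from 100 TPM, with 260 TPM in TGFβ1-stimulated HSCs and 31.7 TPM in untreated HSCs. In all 3 genes the value with TGFβ1 was at least 8-fold that in untreated HSCs.

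The starts of *Timp1* and *Adamtsl2* are shown because these were the strongest differences upwards among genes from 100 TPM and among the matricellular genes, in the RefSeq annotation of GRCm38.p6, from 250 bases before to 50 after the start of the gene. *Timp1* lies on the plus strand at chrX:20869916-20870215 and *Adamtsl2* on the plus strand at chr2:27079129-27079428. Both were searched on both strands for the letters TGACGTGG, a form of the site read by factors of the CREB3 and ATF6 families. The AP-1 type letters TGANTCA and the letters TGATGNAA, GTCTAGAC and CAGACA were searched too, and capitals mark a match. *Timp1* holds TGACGTGG at position -84 from the start, letters that 0.676% of all 32851 RefSeq promoters of this length hold. Of the 7256 members with such a sequence, 78 (1.07%) hold these letters. No other match was found in *Timp1*, and *Adamtsl2* holds none of the letters searched. A match of letters is a description and not a site. Only 7256 of 9642 members had such a sequence, under the 80% needed, so the shares of motifs were not compared between higher and lower genes.
Timp1: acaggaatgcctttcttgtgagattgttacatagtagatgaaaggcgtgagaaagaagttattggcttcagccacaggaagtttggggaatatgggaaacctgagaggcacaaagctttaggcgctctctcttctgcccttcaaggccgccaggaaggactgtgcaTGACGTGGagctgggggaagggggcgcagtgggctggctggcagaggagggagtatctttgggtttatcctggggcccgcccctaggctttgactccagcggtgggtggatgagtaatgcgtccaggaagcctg
Adamtsl2: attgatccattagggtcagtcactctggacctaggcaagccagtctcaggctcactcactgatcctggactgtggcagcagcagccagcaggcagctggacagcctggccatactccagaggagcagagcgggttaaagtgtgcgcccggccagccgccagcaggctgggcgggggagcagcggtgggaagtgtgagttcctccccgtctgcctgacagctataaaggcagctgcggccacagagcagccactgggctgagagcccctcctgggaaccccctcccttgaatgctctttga

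Among named genes, the largest difference downwards was in *Fabp4*, a fatty acid carrier of adipocytes, endothelial cells and macrophages, with 2.18 TPM with TGFβ1 and 54.5 TPM in untreated HSCs (log2 ratio -4.13). *Gngt2*, a G protein gamma subunit, had 2.18 TPM with TGFβ1 and 45.7 TPM in untreated HSCs. *Colec11* (chromosome 12, 28594173-28623377), a collectin made by HSCs that starts the lectin pathway of complement, had 7.44 TPM with TGFβ1 and 96.2 TPM in untreated HSCs, a log2 ratio of -3.52. *Cyp1a1* (chromosome 9, 57687928-57703824), a cytochrome P450 controlled by the aryl hydrocarbon receptor, had 95.9 TPM with TGFβ1 and 1044 TPM in untreated HSCs. *Cyp1a1* was thus one of the strongly expressed genes without the cytokine and was 10.9-fold lower with it. Some names at the extremes belong to short or uncertain features: the immunoglobulin joining segment *Iglj4* was listed at 21.4 TPM with TGFβ1 and at 0 in untreated HSCs, and the T cell receptor joining segment *Traj45* at 38.2 TPM with TGFβ1 and 5.35 TPM in untreated HSCs.

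Measured in TPM instead of ratios, abundant transcripts came first. The 4 largest gains made up 8.73% of all TPM gained, and the 5 largest losses 15.2% of all TPM lost. *Igfbp7*, which encodes a secreted insulin-like growth factor-binding protein, gained 2258 TPM and stood at 3408 TPM with TGFβ1, against 1150 TPM in untreated HSCs. *Cxcl12*, a chemokine that attracts CXCR4-bearing leukocytes, gained 1667 TPM. The small proteoglycan gene *Bgn* (biglycan) gained 1280 TPM and *Sparc*, a collagen-binding matricellular protein, gained 1128 TPM, with a log2 ratio of only 0.94 for *Sparc*. *Gstm1*, a glutathione S-transferase, had the largest loss, with 3233 TPM with TGFβ1 and 7045 TPM in untreated HSCs. *Dcn* (decorin), a small proteoglycan that binds collagen and TGFβ, had 4276 TPM with TGFβ1 and 7021 TPM in untreated HSCs. The ferritin chains *Fth1* and *Ftl1*, at 19842 and 18728 TPM with TGFβ1 against 22254 and 21402 TPM in untreated HSCs, differed by -2412 and -2674 TPM at log2 ratios of -0.17 and -0.19.

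**Figure D3:**
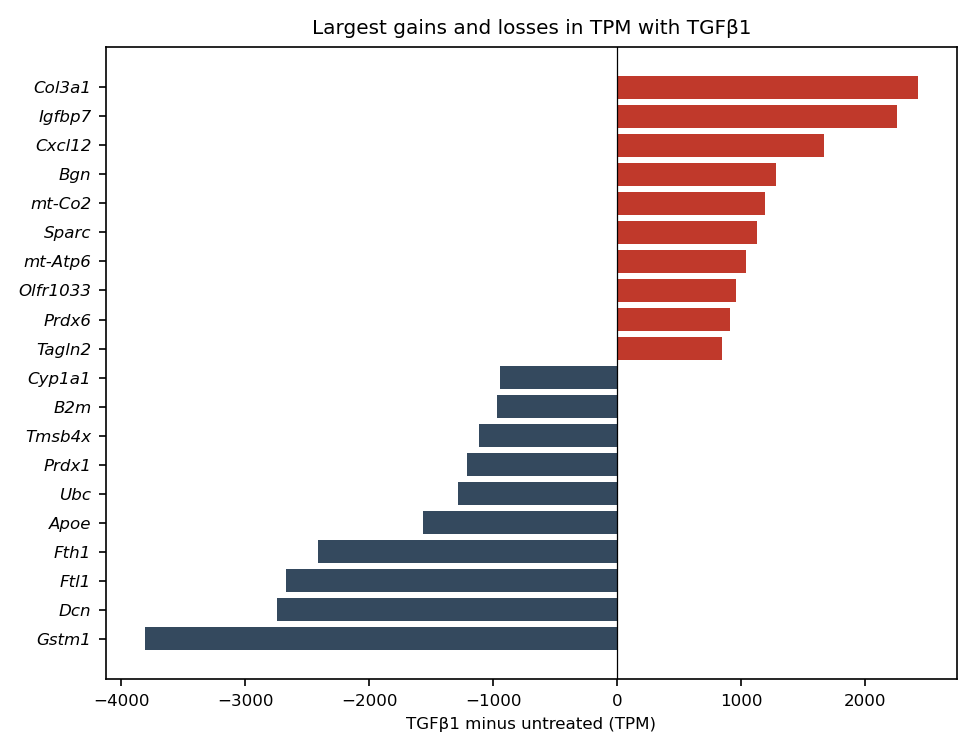
Bars give the TGFβ1 value minus the untreated value in TPM for the 10 genes with the largest gains and the 10 with the largest losses, leaving out 1 gene model without a name. *Col3a1* and *Igfbp7* gained 2429 and 2258 TPM, and *Gstm1* differed by -3811 TPM.

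Secreted signals included several of the genes with large ratios. Of 28 growth factors and cytokines, 8 were at least 2-fold higher (28.6%) and 3 at least 2-fold lower (10.7%), against 1.92% and 1.91% of all genes. Their median log2 ratio was 0.29. The CCN family gene *Wisp1* had 56.3 TPM with TGFβ1 and 5.25 TPM in untreated HSCs, and *Tnfsf13b*, the B cell survival factor BAFF, had 22.5 TPM with TGFβ1 and 5.60 TPM in untreated HSCs. The ligand genes of the TGFβ family did not share 1 direction. *Tgfb1* itself had 19.2 TPM with TGFβ1 and 7.63 TPM in untreated HSCs, and *Inhba*, which encodes the activin A subunit, had 97.1 TPM with TGFβ1 and 41.6 TPM in untreated HSCs. *Tgfb3*, in contrast, had 10.9 TPM with TGFβ1 and 64.8 TPM in untreated HSCs, a log2 ratio of -2.47. The hepatocyte mitogen gene *Hgf* was also lower, with 43.7 TPM in TGFβ1-stimulated HSCs and 115 TPM in untreated HSCs.

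Chemokine genes split by member. Among 21 chemokines and inflammatory mediators, 4 were at least 2-fold higher (19.0%) and 5 at least 2-fold lower (23.8%), against 1.92% and 1.91% of all genes. Their median log2 ratio was 0.04. *Cxcl14* had 260 TPM with TGFβ1 and 47.4 TPM in untreated HSCs, and *Cxcl12* had 2618 TPM with TGFβ1 and 951 TPM in untreated HSCs. *Ptgs1*, the constitutive cyclooxygenase, had 135 TPM with TGFβ1 and 40.7 TPM in untreated HSCs. The neutrophil attractant *Cxcl5* went the other way, with 77.2 TPM with TGFβ1 and 332 TPM in untreated HSCs, as did the interferon-inducible *Cxcl10*, with 7.51 TPM with TGFβ1 and 22.7 TPM in untreated HSCs. The related neutrophil attractants *Cxcl1* and *Cxcl2* lay on the same side as *Cxcl5*, with 108 and 11.8 TPM with TGFβ1, against 218 and 26.5 TPM in untreated HSCs.

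Genes of the BMP and activin branches differed in direction. *Id3* and *Id2*, helix-loop-helix inhibitors that BMP signalling induces, had 171 and 101 TPM with TGFβ1, against 499 and 231 TPM in untreated HSCs. The ligand gene *Bmp2* had 20.0 TPM with TGFβ1 and 50.2 TPM in untreated HSCs. *Fstl3*, a follistatin-like protein that binds activins and myostatin, had 73.4 TPM with TGFβ1 and 19.7 TPM in untreated HSCs. These 4 were the only genes past 2-fold among the 15 of this list, 1 higher (6.67%) and 3 lower (20.0%). Over all genes, 1.92% were higher and 1.91% lower. The list's median log2 ratio was 0.27.

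Receptors for vasoactive and neural signals tended to lower values. Of 22 such receptor genes, 0 were at least 2-fold higher and 4 at least 2-fold lower (18.2%), against 1.92% and 1.91% of all genes. A ratio below 1 was seen in 15, and the median log2 ratio was -0.35, against 0.01 over all genes. *S1pr1* and *S1pr3*, receptors for sphingosine 1-phosphate, had 4.50 and 43.7 TPM with TGFβ1, against 28.9 and 113 TPM in untreated HSCs. *Ramp1*, the partner subunit of the calcitonin gene-related peptide receptor, had 6.71 TPM with TGFβ1 and 28.0 TPM in untreated HSCs. *Agtr1a*, the angiotensin II receptor, had 102 TPM with TGFβ1 and 208 TPM in untreated HSCs. *Sphk1*, the kinase that makes sphingosine 1-phosphate, lay on the other side with 55.6 TPM with TGFβ1 and 12.6 TPM in untreated HSCs, a gene chosen after its values were seen.

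Among 29 receptor tyrosine kinase and growth factor receptor genes, 2 were at least 2-fold higher and 2 at least 2-fold lower (6.90% each). Over all genes the shares were 1.92% and 1.91%. *Fgfr1* had 89.1 TPM with TGFβ1 and 39.5 TPM in untreated HSCs, and *Pdgfrb*, the receptor for the main HSC mitogen, had 139 TPM with TGFβ1 and 66.3 TPM in untreated HSCs. *Kit*, the stem cell factor receptor, had 6.13 TPM with TGFβ1 and 26.2 TPM in untreated HSCs, and *Kdr*, the VEGF receptor of endothelial cells, had 4.61 TPM with TGFβ1 and 17.0 TPM in untreated HSCs. The other FGF receptor gene of this list with a large ratio, *Fgfr2*, was 0.93 lower on the log2 scale and so inside 2-fold, with 111 TPM with TGFβ1 and 212 TPM in untreated HSCs. Of the integrins, which bind matrix and free latent TGFβ, *Itgb5* had 54.8 TPM with TGFβ1 and 15.9 TPM in untreated HSCs, and the fibronectin receptor chain *Itga5* had 131 TPM with TGFβ1 and 60.9 TPM in untreated HSCs. *Itga8*, the partner of nephronectin, had 5.46 TPM with TGFβ1 and 31.3 TPM in untreated HSCs, and passed the limit of 10 TPM through untreated HSCs alone. The other 8 integrin genes lay within 2-fold. Of the 11, 18.2% were thus higher and 9.09% lower, against 1.92% and 1.91% of all genes.

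**Figure D4:**
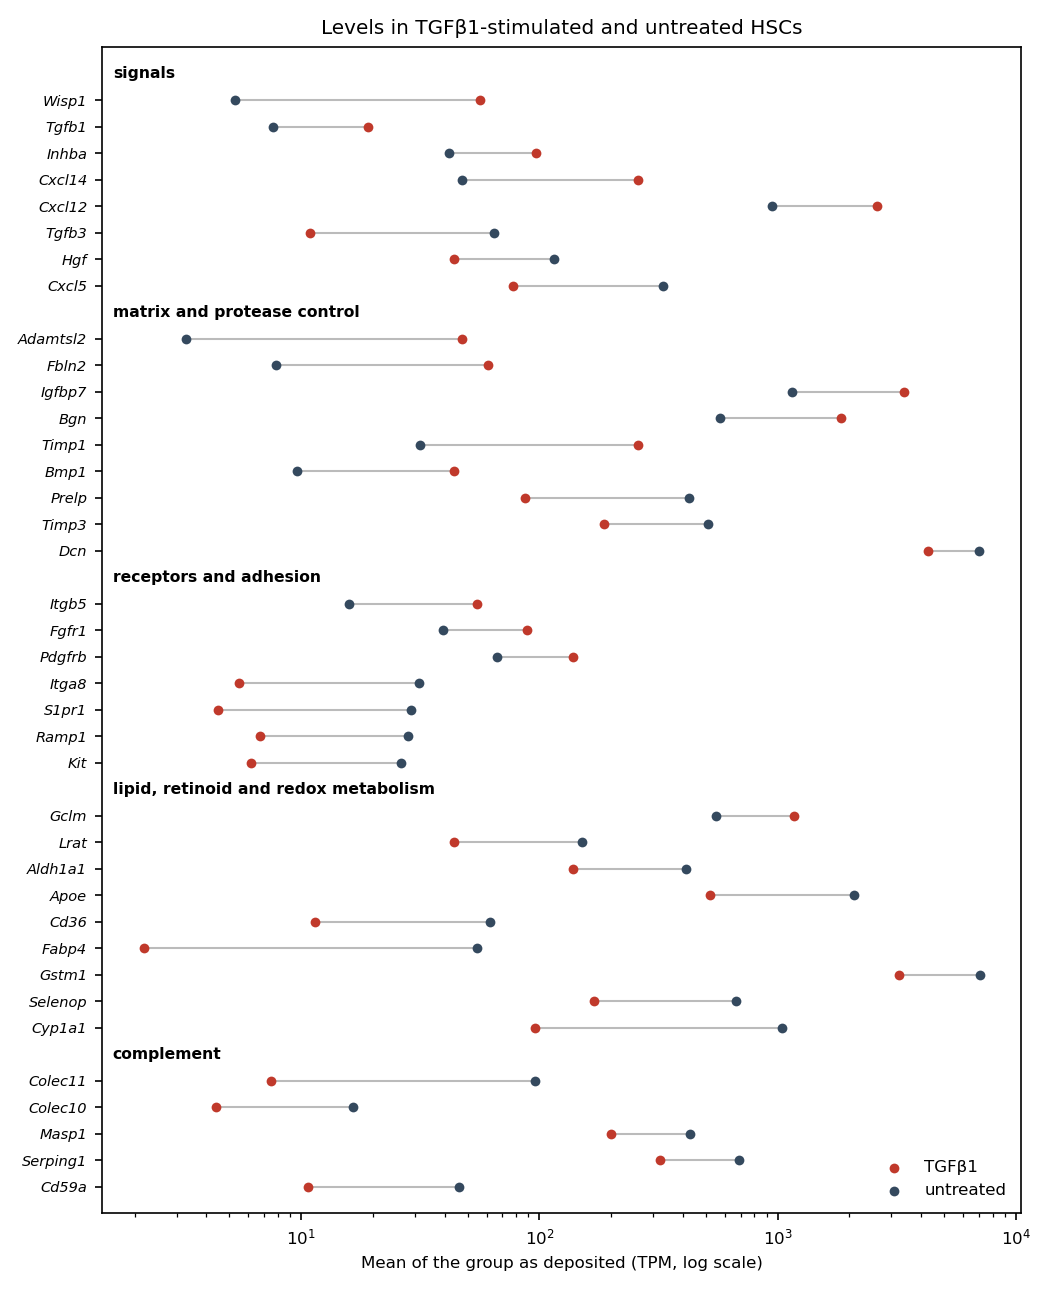
Mean TPM of each group on a log scale for genes grouped by role, with TGFβ1 in red and untreated in blue. All 5 complement genes shown lie lower with TGFβ1, whereas signals, matrix genes and receptors include genes on either side, such as *Tgfb1* and *Tgfb3*.

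Matrix genes outside the fibrillar collagens formed the list with most large ratios upwards. Of 31 matricellular and elastic fibre genes, 10 were at least 2-fold higher (32.3%), against 1.92% of all genes, and 1 was at least 2-fold lower. Some genes of this and other lists passed the limit of 10 TPM through 1 group alone, so such shares are only a description. Among the 10 here, *Adamtsl2*, *Wisp1*, *Fbln2* and *Dpt* were under 10 TPM in untreated HSCs. With at least 10 TPM in both groups, 101 of all genes (1.12%) were higher, and the lists were not counted that way. The 10 included *Fbln2* (fibulin-2, an elastic fibre protein; 60.8 TPM with TGFβ1 and 7.83 TPM in untreated HSCs), *Dpt* (dermatopontin; 22.9 TPM with TGFβ1 and 4.65 TPM in untreated HSCs) and *Spp1* (osteopontin; 285 TPM with TGFβ1 and 52.1 TPM in untreated HSCs). *Efemp1* (fibulin-3) was the 1 that was lower, with 69.9 TPM with TGFβ1 and 250 TPM in untreated HSCs. The median log2 ratio of the list was 0.17, since 14 of its 31 genes had a ratio below 1. Basement membrane genes showed no member past 2-fold among 13, with *Col4a1* at 449 TPM with TGFβ1 and 444 TPM in untreated HSCs.

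Proteoglycan core proteins included genes on either side, with 3 of 16 at least 2-fold higher and 3 at least 2-fold lower (18.75% each). Over all genes the shares were 1.92% and 1.91%. The median log2 ratio of the list was -0.23. *Bgn* had 1853 TPM with TGFβ1 and 573 TPM in untreated HSCs, while *Prelp*, a leucine-rich relative that anchors basement membranes to connective tissue, had 87.3 TPM with TGFβ1 and 425 TPM in untreated HSCs. On the cell surface, *Gpc1* (glypican-1) had 29.2 TPM with TGFβ1 and 7.57 TPM in untreated HSCs, and *Sdc3* (syndecan-3) had 135 TPM with TGFβ1 and 43.7 TPM in untreated HSCs. *Lum* (lumican) and *Srgn* (serglycin) completed the 3 lower genes of the list, with log2 ratios of -1.45 and -1.49. The enzymes that build glycosaminoglycan chains lay mostly within 2-fold: 1 of 27, *Extl3*, was at least 2-fold higher, with 39.0 TPM with TGFβ1 and 18.2 TPM in untreated HSCs.

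Proteases and their inhibitors also included genes on either side. *Bmp1*, the procollagen C-proteinase, had 43.7 TPM with TGFβ1 and 9.62 TPM in untreated HSCs, and the plasminogen activator *Plat* had 22.3 TPM with TGFβ1 and 7.90 TPM in untreated HSCs. *Mmp12*, an elastase, had 44.3 TPM with TGFβ1 and 107 TPM in untreated HSCs, and *Adamts1*, a versican-cleaving protease, had 51.9 TPM with TGFβ1 and 115 TPM in untreated HSCs. The other 24 of 28 protease genes lay within 2-fold, so that 7.14% were higher and 7.14% lower, against 1.92% and 1.91% of all genes. Of the 15 inhibitors, 3 were at least 2-fold higher (20.0%), *Timp1* and *Tfpi2* among them, and *Timp3*, *Wfdc1* and *Serping1* at least 2-fold lower (20.0%). *Timp3*, the matrix-bound metalloprotease inhibitor, had 188 TPM with TGFβ1 and 509 TPM in untreated HSCs, opposite to *Timp1*.

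The secretory route showed small ratios that mostly pointed upwards. Of 38 genes of COPII transport and collagen export, 34 had a ratio above 1, with a median log2 ratio of 0.33. At least 2-fold higher were 3 (7.89%, against 1.92% of all genes). *Creb3l1* and *Creb3l2*, membrane-bound transcription factors released by cleavage in the Golgi that control secretory genes, had 42.1 and 35.9 TPM with TGFβ1, against 15.6 and 13.4 TPM in untreated HSCs. *Kdelr3*, a receptor that returns chaperones to the endoplasmic reticulum (ER), had 135 TPM with TGFβ1 and 55.9 TPM in untreated HSCs. Of 41 ER chaperones and folding enzymes, 36 had a ratio above 1 and 0 were past 2-fold, with a median log2 ratio of 0.29. The prolyl isomerase gene *Fkbp10*, which takes part in collagen folding, had the largest, with 186 TPM with TGFβ1 and 109 TPM in untreated HSCs. Over all genes, 4954 of 9652 had a ratio above 1.

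**Figure D5:**
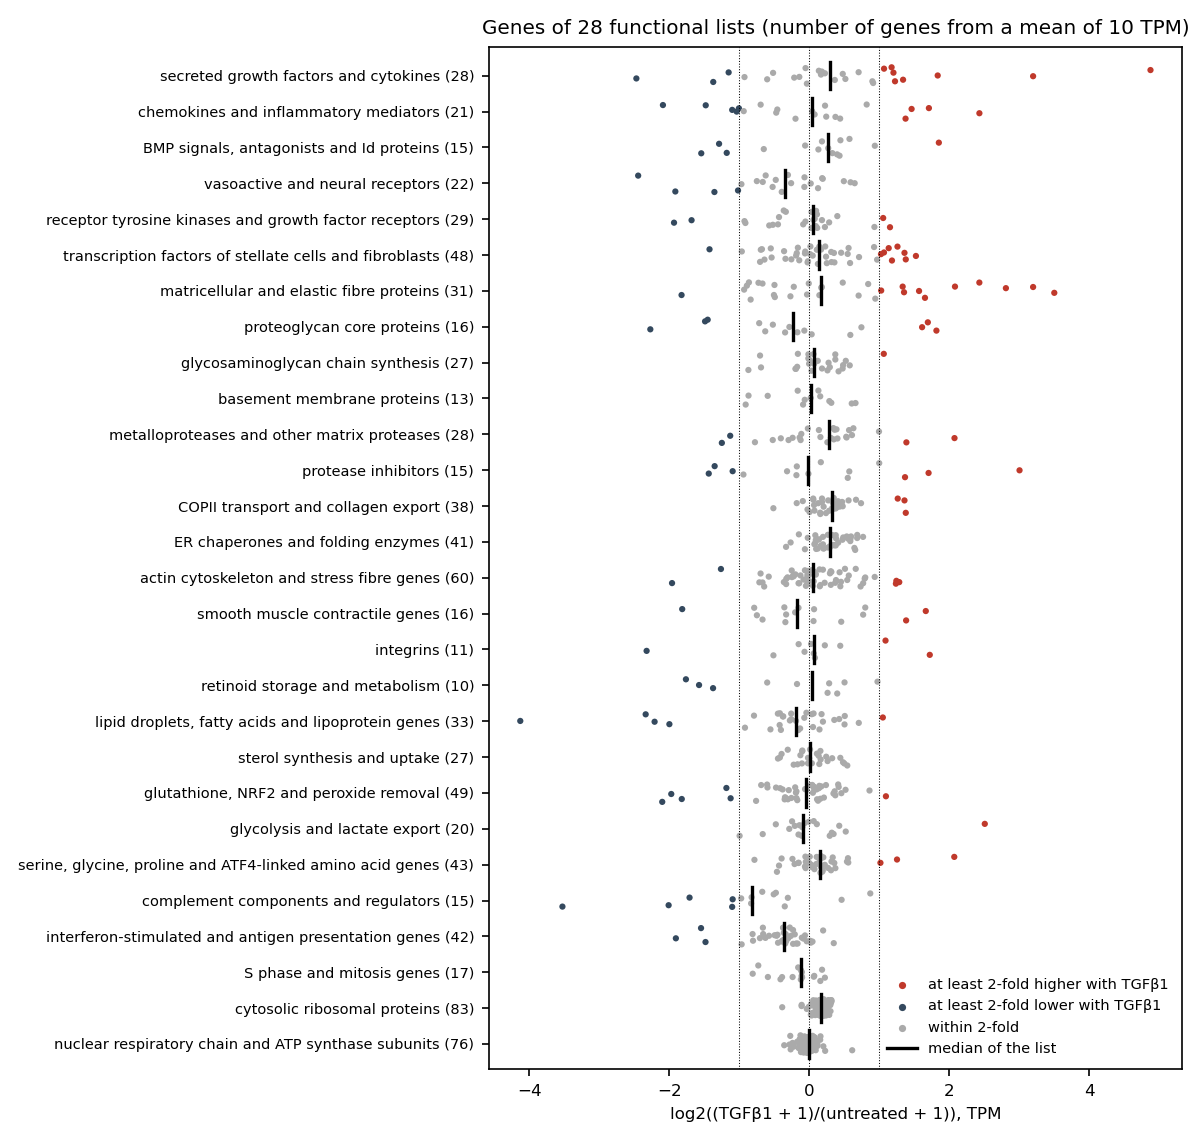
Each point is the log2 ratio of TGFβ1 to untreated HSCs of 1 gene, by functional list, with the median of each list as a black bar; dotted lines mark no difference and 2-fold. Matricellular and elastic fibre proteins hold 10 red points, ER chaperones and folding enzymes crowd just above 0 with a median of 0.29, and complement genes have a median of -0.82.

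Transcription factor genes with large ratios were mostly higher with TGFβ1. Of 48, 8 were at least 2-fold higher (16.7%) and 1 was at least 2-fold lower (2.08%), against 1.92% and 1.91% of all genes. *Creb3l1* and *Creb3l2* were among the 8, so they are counted both here and with the secretory route. *Egr2*, an immediate early zinc finger factor, had 19.5 TPM with TGFβ1 and 6.14 TPM in untreated HSCs, and *Runx1* had 27.6 TPM with TGFβ1 and 10.9 TPM in untreated HSCs. The 1 lower gene was *Nr1h4*, the bile acid receptor FXR, with 11.4 TPM with TGFβ1 and 32.2 TPM in untreated HSCs.

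Actin and contractile genes, often used as signs of the myofibroblast state, included large ratios in both directions. Of 60 actin cytoskeleton genes, 3 were at least 2-fold higher (5.00%) and 2 at least 2-fold lower (3.33%), against 1.92% and 1.91% of all genes, and the median log2 ratio was 0.06. *Tagln2*, an actin-binding transgelin, had 1434 TPM with TGFβ1 and 588 TPM in untreated HSCs. *Fhl1*, a LIM-domain protein of muscle, had 151 TPM with TGFβ1 and 591 TPM in untreated HSCs. *Acta2*, which encodes αSMA, had 692 TPM with TGFβ1 and 796 TPM in untreated HSCs, and *Myh11*, the smooth muscle myosin heavy chain, had 7.03 TPM with TGFβ1 and 27.2 TPM in untreated HSCs. Contractile genes did not share a direction: of 16, *Tnnt2*, a troponin gene, and *Smtnl2* were at least 2-fold higher (12.5%), *Myh11* was at least 2-fold lower (6.25%), and the median was -0.18.

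Genes of vitamin A handling and lipid transport held several large ratios downwards. *Lrat*, which esterifies retinol for storage, had 43.9 TPM with TGFβ1 and 151 TPM in untreated HSCs, and *Aldh1a1*, which oxidizes retinal to retinoic acid, had 138 TPM with TGFβ1 and 413 TPM in untreated HSCs. Of the 10 retinoid genes, 3 were at least 2-fold lower (30%) and 0 at least 2-fold higher, against 1.91% and 1.92% of all genes. The 3 were *Lrat*, *Aldh1a1* and *Rarres2*. By sign the 10 did not share a direction: 5 had a ratio above 1, and their median log2 ratio was 0.04. Among 33 lipid genes, 4 were at least 2-fold lower (12.1%, against 1.91% of all genes): *Fabp4*, *Cd36*, *Apoc1* and *Apoe*. *Apoe* (chromosome 7, 19696109-19699188), the apolipoprotein of remnant particles, had 522 TPM with TGFβ1 and 2089 TPM in untreated HSCs, and *Cd36*, a fatty acid and thrombospondin receptor, had 11.5 TPM with TGFβ1 and 61.9 TPM in untreated HSCs. *Lrp1*, an endocytic receptor for apolipoprotein E, was the 1 lipid gene at least 2-fold higher, with 248 TPM with TGFβ1 and 119 TPM in untreated HSCs. By contrast, 0 of 27 genes of sterol synthesis and uptake were past 2-fold, and their log2 ratios lay between -0.45 and 0.54.

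Of 49 detoxification genes, 5 were at least 2-fold lower (10.2%) and 1 was higher (2.04%), against 1.91% and 1.92% of all genes. *Gstm1* and *Gstt1*, glutathione S-transferases, had 3233 and 20.2 TPM with TGFβ1, against 7045 and 90.0 TPM in untreated HSCs. *Selenop*, which carries selenium in plasma, had 169 TPM with TGFβ1 and 667 TPM in untreated HSCs, and *Ephx1*, an epoxide hydrolase, had 309 TPM with TGFβ1 and 704 TPM in untreated HSCs. The last of the 5 was *Akr1b8*, an aldo-keto reductase, with 53.6 TPM with TGFβ1 and 192 TPM in untreated HSCs. *Gclm*, the regulatory subunit of the enzyme that starts glutathione synthesis, was the 1 gene of the list at least 2-fold higher, with 1173 TPM with TGFβ1 and 549 TPM in untreated HSCs. The median log2 ratio of the 49 genes was -0.04. A list of the aryl hydrocarbon receptor and its targets, drawn up after the values were seen, had 7 genes with a median log2 ratio of -0.42, of which 4 had a ratio below 1, *Cyp1a1* and *Nqo1* among them. *Cyp1b1*, another cytochrome P450 of this list, lay on the other side, with 104 TPM with TGFβ1 and 41.8 TPM in untreated HSCs.

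Central metabolism was otherwise close to untreated levels. *Slc16a3*, which exports lactate, had 40.2 TPM with TGFβ1 and 6.25 TPM in untreated HSCs, but the other 19 genes of glycolysis and lactate export lay within 2-fold and the median log2 ratio was -0.08. Of 43 genes of serine, glycine and proline metabolism or linked to the stress factor ATF4, 3 were at least 2-fold higher (6.98%, against 1.92% of all genes). These were *Ddit4*, *Odc1* and *Bcat1*. *Ddit4*, an inhibitor of mTORC1, had 21.4 TPM with TGFβ1 and 4.34 TPM in untreated HSCs. *Odc1*, the first enzyme of polyamine synthesis, had 145 TPM with TGFβ1 and 60.2 TPM in untreated HSCs, and *Srm*, the spermidine synthase chosen after its values were seen, had 243 TPM with TGFβ1 and 115 TPM in untreated HSCs. The cytosolic aminoacyl-tRNA synthetases, many of which are targets of ATF4, held 0 of 23 genes past 2-fold.

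Complement genes were the list with the lowest median apart from endothelial markers. Of 15 components and regulators, 5 were at least 2-fold lower (33.3%, against 1.91% of all genes). A ratio below 1 was seen in 13, and the median log2 ratio was -0.82. *Colec10*, the partner of *Colec11*, had 4.37 TPM with TGFβ1 and 16.6 TPM in untreated HSCs, and *Masp1*, the protease they activate, had 200 TPM with TGFβ1 and 430 TPM in untreated HSCs. The collectins and their protease were lower together. The inhibitors *Serping1* and *Cd59a* were lower as well, with 321 and 10.7 TPM with TGFβ1, against 686 and 46.2 TPM in untreated HSCs. Of the 2 genes with a ratio above 1, *Cfb* (factor B of the alternative pathway) had a log2 ratio of 0.87.

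Interferon-stimulated and antigen presentation genes were mostly a little lower. Of 42, 37 had a ratio below 1, 3 were at least 2-fold lower (7.14%, against 1.91% of all genes), and the median log2 ratio was -0.36. *Ifi27l2a* had 97.7 TPM with TGFβ1 and 369 TPM in untreated HSCs, and *Ifitm1*, a membrane protein that restricts virus entry, had 127 TPM with TGFβ1 and 356 TPM in untreated HSCs. *Ifit3*, another interferon-stimulated gene, was the last of the 3, with 8.99 TPM with TGFβ1 and 28.2 TPM in untreated HSCs. *B2m*, the light chain of class I molecules, had 4869 TPM with TGFβ1 and 5841 TPM in untreated HSCs.

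Genes of the cell cycle and of basic cell functions lay close to untreated levels. None of the 17 genes of S phase and mitosis and none of the 22 D cyclins, CDK inhibitors and growth arrest genes was past 2-fold. *Mcm7* and *Mcm3*, subunits of the replicative helicase, had 16.6 and 11.1 TPM with TGFβ1, against 29.9 and 19.0 TPM in untreated HSCs. Of 83 cytosolic ribosomal protein genes, 78 had a ratio above 1 at a median log2 ratio of 0.17, and the sum over all 88 listed was 67869 TPM with TGFβ1 and 60856 TPM in untreated HSCs. The 76 nuclear genes of the respiratory chain and ATP synthase had a median of -0.01, and the 34 proteasome genes a median of 0.10.

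Genes that mark the quiescent HSC were lower more often than higher. Of 33 in the list, 25 had a ratio below 1, and the median log2 ratio was -0.45. At least 2-fold lower were 8 (24.2%) and at least 2-fold higher 3 (9.09%), against 1.91% and 1.92% of all genes. The lower genes included *Colec11*, *Prelp*, *Lrat*, *Colec10* and *Hgf*, which are given above. The 3 higher genes were *Adamtsl2*, *Pdgfrb* and *Nt5e*, an ectonucleotidase that makes adenosine, with 110 TPM with TGFβ1 and 53.3 TPM in untreated HSCs.

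Most endothelial genes were lower with TGFβ1. Of 23 listed, 8 had a mean of at least 10 TPM, with a median log2 ratio of -1.63. Of these, 6 were at least 2-fold lower (75%, against 1.91% of all genes). *Kdr*, *Tie1* and *Aqp1* among the 6 passed the limit of 10 TPM through untreated HSCs alone, so this share is only a description. Over all 23 the sum was 368 TPM with TGFβ1 and 893 TPM in untreated HSCs. *Fcgr2b*, the Fc receptor of sinusoidal endothelium, had 13.3 TPM with TGFβ1 and 143 TPM in untreated HSCs, and the water channel *Aqp1* had 4.29 TPM with TGFβ1 and 41.1 TPM in untreated HSCs. *Pecam1*, the junctional protein of endothelium and platelets, did not follow them and stood at 96.8 TPM with TGFβ1 and 103 TPM in untreated HSCs. Among weaker genes, the sinusoidal scavenger receptor *Stab2* had 9.08 TPM with TGFβ1 and 5.48 TPM in untreated HSCs, and *Lyve1* had 0.929 TPM with TGFβ1 and 0.863 TPM in untreated HSCs. In bulk samples, fewer cells of a type and less RNA per cell cannot be told apart. *Fabp4*, *Cd36*, *S1pr1*, *Kdr* and *Kit* are also expressed by endothelial cells, and the part of those cells in the differences above was not tested. Markers of macrophages lay on either side. Of the 6 with a mean of at least 10 TPM, 1 was at least 2-fold lower (16.7%, against 1.91% of all genes). This was *Fcer1g*, with 8.88 TPM with TGFβ1 and 23.3 TPM in untreated HSCs. *Cd68* had a log2 ratio of -0.27, and 4 of the 6 had a ratio above 1. All 20 listed summed to 239 TPM with TGFβ1 and 198 TPM in untreated HSCs, a difference that came mostly from *Lyz2*, with 92.9 TPM with TGFβ1 and 54.5 TPM in untreated HSCs. Of 20 portal fibroblast and vascular mural genes listed, 6 had a mean of at least 10 TPM. At least 2-fold lower were 3 (50%, against 1.91% of all genes): *Myh11*, *Mustn1* and *Kcnj8*. *Myh11* passed the limit through untreated HSCs alone. The whole list summed to 247 TPM with TGFβ1 and 450 TPM in untreated HSCs.

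The FGF18 condition was set against the same untreated values, so the ratios of the 2 cytokines share their denominator and are given only side by side. *Adamtsl2* and *Lox* had log2 ratios of 3.50 and 4.04 with TGFβ1 and of -0.52 and -0.63 with FGF18. *Cyp1a1* had -3.43 with TGFβ1 and 0.53 with FGF18, and *Bmp2* had -1.29 with TGFβ1 and 1.07 with FGF18. *Bmp2* and *Cyp1a1* thus lay on opposite sides of untreated HSCs with the 2 cytokines. Others had ratios of the same sign: *Timp1* had 3.00 with TGFβ1 and 0.89 with FGF18, *Colec11* had -3.52 and -2.85, and *Tgfb3* had -2.47 and -2.41. For the endothelial *Fcgr2b*, the log2 ratio was -3.33 with TGFβ1 and -0.50 with FGF18. Whether any gene differed between the cytokines beyond the spread of samples could not be tested on means.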

How the data were processed

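HSC libraries were made with a full-length SMART-Seq kit by the authors, who mapped the reads to mouse GRCm38 and normalized and compared the groups on the RaNA-seq platform. Aligner, counting program and annotation release: not given in the sources used here. Each condition's TPM values were averaged and deposited by the authors, and summed to 999992 TPM (TGFβ1) and 999985 TPM (untreated). Depth per sample, and so the precision of a value, is unknown. The authors' own log2 fold changes, standard errors, statistics and p-values in the tables were not used.

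Log2 ratios had a pseudocount of 1 TPM, and a gene was counted when its mean reached 10 TPM and its ratio 2-fold. By symbol, 9480 of the 9652 members matched 1 gene of GENCODE M21. Untreated values agreed between both tables to within 0.001 TPM for all 30595 shared symbols. There were 0 columns of unknown condition. Computations used Python 3.11.15, numpy 2.4.6, pandas 2.3.3 and matplotlib 3.10.9, and the counting step was tested on simulated data.

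The members and the 41 lists were chosen with earlier results of these data known, and a further 5 lists were written after the values were seen. Genes named were the 15 largest ratios in each direction, the 10 largest from 100 TPM, the 10 largest gains and losses on the TPM scale, and at most 5 genes of each list by ratio, leaving out unnamed gene models. Other genes named were chosen after their values were seen, and some genes that the rule takes are not reported here. Alternatives were other pseudocounts, filters, thresholds, a centred and a rescaled ratio, and protein-coding genes only.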

Additional observations from a re-analysis of the deposited data

How the results depend on the processing

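The counts of 185 genes higher and 184 lower with TGFβ1 stayed within 1.5 times with a pseudocount of 0.1 or 5 TPM, with centring, with rescaling and over protein-coding genes. Among these settings they were lowest with a pseudocount of 5 TPM, at 126 and 131. They became 1209 and 1168 with no filter on low values, 325 and 335 from a mean of 5 TPM, 24 and 38 from a mean of 100 TPM, and 101 and 103 with at least 10 TPM in both groups. At a threshold of 1.5-fold they were 597 and 541, and at 3-fold 51 and 63. These settings test other genes or another size of difference by their construction.

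Centring took 0.03 off each log2 ratio, and rescaling without the 20 largest differences and the mitochondrial genes moved the median by -0.01. Of the 112 genes past 2-fold that the rule for named genes takes, 106 were still past 2-fold with a pseudocount of 5 TPM. Their sign is no check, since a pseudocount cannot change it and shifts of this size cannot reverse a 2-fold ratio. The medians of 3 lists changed sign with centring and of 2 with rescaling, each of a size under 0.05 before.

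Leaving out each replicate in turn was not run, since only means were analysed. No paired analysis was possible because the columns carry no replicate numbers. Depth per library is unknown, so how much of a difference at low TPM is sampling could not be given.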
